A study of Mus musculus with 4 samples.

Results

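The collagen chain genes were taken as every symbol in the deposited count table that is spelled Col, a number, the letter a and a number, with nothing after it. The rule found 44 genes among the 41079 listed. They were divided by the kind of assembly their chains form into 11 fibrillar chains, 6 basement membrane chains, all of type IV, and 27 others. Lung RNA came from female C57BL/6 littermates 8 to 14 weeks old. Rab44-KO mice carried a Rab44 gene edited with CRISPR/Cas9 and their WT littermates did not. OVA-induced mice of either genotype received intraperitoneal injections of 100 μg OVA in alum on days 0, 7 and 14, were challenged with 100 μg OVA in 50 μL intranasally daily on days 17 to 20, and were sampled on day 21. Normal mice are labelled as untreated, although a shared protocol text also names a PBS challenge. Each of the 4 combinations of genotype and condition was a single library, and the sources used here do not say how many mice stand behind it. The 4 libraries held from 18112901 to 19910236 counts. Rab44 itself had 251 and 810 counts in WT lungs, normal then OVA-induced, and 1 and 0 in Rab44-KO lungs.

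Collagens are secreted proteins whose chains wind around each other into a stiff helix, and most need several enzymes and chaperones to be hydroxylated, folded, trimmed and crosslinked. Fibrillar types such as I, III and V build the cables of the interstitium, airway wall and vessel adventitia. Type IV chains form the sheet-like network of basement membranes, which in the alveolus lies between epithelium and capillary. Type VI makes beaded filaments near cells, and the remaining types decorate fibrils, anchor basement membranes or span the plasma membrane. In lung, fibroblasts are a main source of fibrillar and type VI chains, while epithelial and endothelial cells contribute type IV chains. In bulk RNA a lower level can mean fewer cells of a type or less RNA per cell, and the libraries cannot separate these.

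With 1 library per group no difference was tested, and every comparison is between libraries. The log2 fold change (log2FC) is the log2 ratio of counts scaled to library size (CPM) by TMM. Ranges in parentheses are exact 95% intervals of a count ratio and cover counting error only. Of the 44 chains, 35 had a mean of at least 10 counts over the 4 libraries and enter the summaries: 8 fibrillar, 6 of type IV and 21 others. The other 9 never exceeded 16 counts, and Col9a1, a cartilage chain, had 0 in all 4 libraries, which allows up to 3 counts in each. Genes that reached this minimum are called detected. Chains with a mean of at least 100 counts, 28 in all, are described by name. Where 4 values of a gene follow each other, they give WT lungs under normal and then OVA-induced conditions, followed by Rab44-KO lungs likewise.

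The sequence just before a gene's start was available from RefSeq (GRCm38.p6) for 35 of the 44 chains. The following are the 250 bases upstream of the start, 5′ to 3′ on the gene's strand, for chains of each class that are described later: Col3a1 (chr1:45311288-45311537, plus strand), Col4a6 (chrX:141474077-141474326, minus), Col6a5 (chr9:105960644-105960893, minus) and Col8a1 (chr16:57754738-57754987, minus). No annotated exon lies in these windows. Those of Col1a2 and Col4a5 were also looked at and are not printed, since an annotated exon lies in each. Col4a6 had the fewest counts among the type IV chains. Capitals mark the letters of a TATA box (TATAAA) in Col3a1 and of a GC box (GGGCGG, or CCGCCC on the other strand) in the others. The letters were sought anywhere in the window, so a match need not lie where such a box acts.
Col3a1: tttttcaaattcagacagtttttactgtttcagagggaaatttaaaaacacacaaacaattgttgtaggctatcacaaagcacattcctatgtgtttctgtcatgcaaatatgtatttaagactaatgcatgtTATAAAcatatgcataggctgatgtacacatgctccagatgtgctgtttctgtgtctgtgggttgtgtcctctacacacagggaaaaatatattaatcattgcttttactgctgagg
Col4a6: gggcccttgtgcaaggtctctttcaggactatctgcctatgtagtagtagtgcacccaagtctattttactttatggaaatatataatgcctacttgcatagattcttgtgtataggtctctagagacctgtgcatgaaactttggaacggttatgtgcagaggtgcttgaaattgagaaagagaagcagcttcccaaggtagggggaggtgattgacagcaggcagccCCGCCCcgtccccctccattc
Col6a5: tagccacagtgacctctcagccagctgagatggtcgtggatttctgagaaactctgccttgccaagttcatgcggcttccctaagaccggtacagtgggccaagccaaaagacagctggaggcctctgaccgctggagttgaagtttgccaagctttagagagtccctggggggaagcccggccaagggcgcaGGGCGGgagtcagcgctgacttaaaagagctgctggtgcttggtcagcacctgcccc
Col8a1: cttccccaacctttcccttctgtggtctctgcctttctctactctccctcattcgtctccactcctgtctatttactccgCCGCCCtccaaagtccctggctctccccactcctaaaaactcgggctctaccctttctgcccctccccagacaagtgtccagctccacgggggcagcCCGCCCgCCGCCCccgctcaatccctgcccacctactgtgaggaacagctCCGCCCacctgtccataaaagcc

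Col3a1 had the most AT-rich of these windows, at 35.2% G and C, against 60.8% in Col8a1, whose window held its GC box at 4 places. Both strands were searched, and occurrences overlapping another motif were kept. Among all 27025 promoters of this length, the GC box letters occurred in 32.9%, and they occurred in 21 of the 35 chains (60%). The chains also had more G and C, with medians of 60.8% in fibrillar, 62.8% in type IV and 58% in other windows against 52% in all promoters, and the share of GC boxes was not adjusted for this. The CCAAT box letters, read as ATTGG on the opposite strand, occurred in 34.5% of promoters and in 12 chains (34.3%). The TATA box letters, which read TTTATA on the opposite strand, occurred in 13% of promoters and in 5 chains (14.3%), of which 2 were among 8 fibrillar and 0 among 5 type IV windows (all but Col4a3). The 6 type IV genes lie in pairs that start next to each other on opposite strands (GENCODE M21, GRCm38). Col4a1 and Col4a2 on chromosome 8 overlap by 22 bases at their starts, Col4a4 and Col4a3 on chromosome 1 start 72 bases apart, and Col4a6 and Col4a5 on chromosome X start 1309 bases apart. These matches of letters describe the windows and were not related to the counts.

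Taken as a whole, the chains took a similar share of each library. In WT lungs they summed to 73911 counts under normal and 82487 under OVA-induced conditions, or 0.386% and 0.414% of the library. In Rab44-KO lungs the sums were 73382 and 81328, or 0.405% and 0.425%. The OVA-induced Rab44-KO sum was 0.979 times the WT sum after scaling. Within that total the sums of the classes differed in direction. Fibrillar counts were 22324 (normal) and 31103 (OVA-induced) in WT and 23043 and 20994 in Rab44-KO lungs, so the OVA-induced WT library stood above the rest. Type IV counts, in the same order, were 28751, 24832, 29701 and 37111, with the OVA-induced WT library lowest and the OVA-induced Rab44-KO library highest. Rab44-KO over WT in OVA-induced lungs, the log2 ratio of the summed counts was -0.58 (-0.60 to -0.55) for fibrillar chains, 0.57 (0.55 to 0.59) for type IV and -0.20 (-0.23 to -0.18) for the others. In normal lungs these ratios were 0.12, 0.12 and -0.07. The fibrillar sum does not stand for each chain, since in OVA-induced lungs 4 of the 8 detected fibrillar chains were above 0 and 4 below. Their median log2FC was -0.01, or 0.30 with TPM, where all genes had a median of 0.29.

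**Figure D1:**
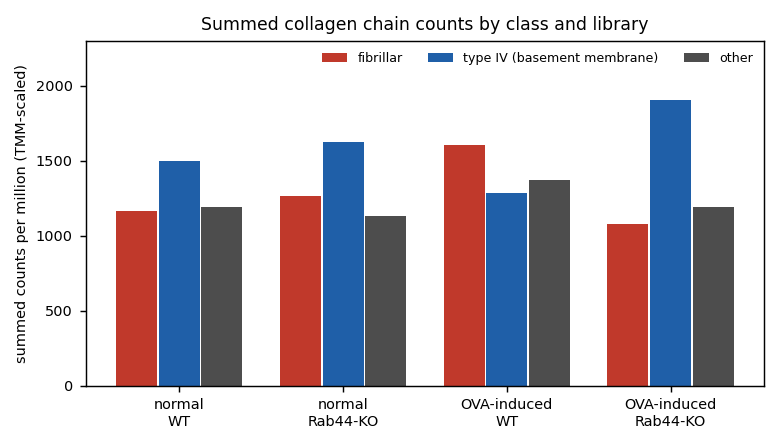
Summed CPM of the 11 fibrillar, 6 type IV and 27 other collagen chains (bars, linear axis from 0) in each of the 4 libraries. In OVA-induced lungs fibrillar chains reached 1606 in WT and 1077 in Rab44-KO, and type IV chains 1282 and 1904.

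A few chains carried these sums. Without Col3a1, an omission chosen after seeing the data, the fibrillar ratio in OVA-induced lungs was -0.34. Without Col4a1 and Col4a2 the type IV ratio was 0.68. On the deposited scale that also divides by transcript length (TPM), the OVA-induced Rab44-KO to WT ratio of sums was 0.819 for fibrillar chains and 1.86 for type IV. For the other chains it was 1.06 and for all chains 1.16, so on this scale those sums were higher in Rab44-KO, unlike the scaled counts. The median log2FC of all genes was also higher on this scale, at 0.29 against -0.03 with scaled counts.

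Per length, the same 7 chains led all libraries: Col4a2, Col4a1, Col1a2, Col1a1, Col3a1, Col6a1 and Col6a2. Col4a2 ranked first in TPM in normal WT, normal Rab44-KO and OVA-induced Rab44-KO lungs, at 201, 224 and 294. In OVA-induced WT lungs the highest was Col3a1, at 257 TPM, and Col4a2, at 154, was the fourth. Counting intervals of the leading chains are narrow at this depth, but nothing measures how far such an order varies between mice.

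**Figure D2:**
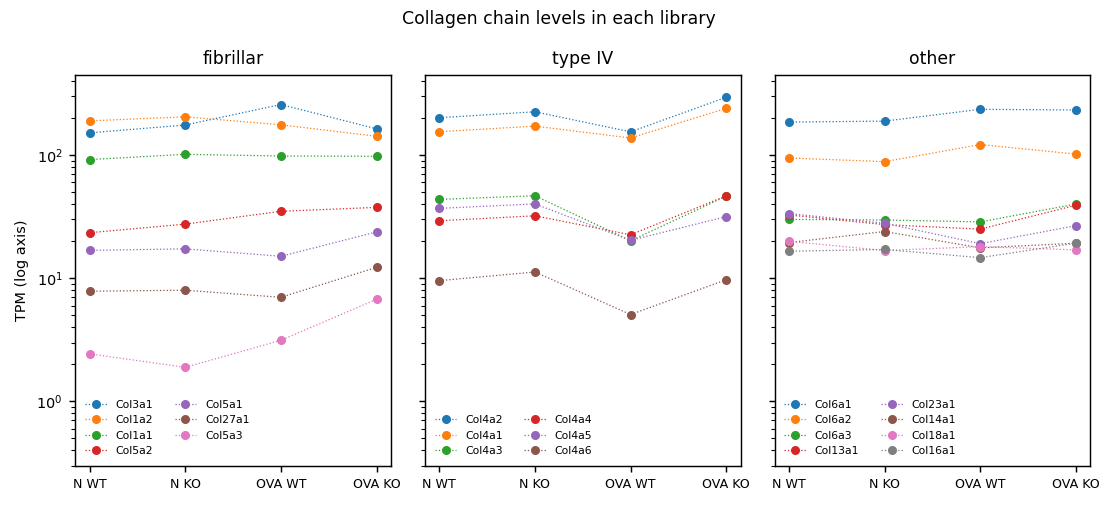
TPM (log axis) of the fibrillar, type IV and most abundant other chains in the 4 libraries (N, normal), where dotted lines join the values of a chain and are no time course. Col3a1 peaks at 257 in OVA-induced WT lungs, while all 6 type IV chains have their lowest value there.

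Col3a1 encodes the chain of type III collagen, found beside type I in distensible tissues, and lies on chromosome 1 from 45311538 to 45349706 of GRCm38. It had 6802 (normal) and 13146 (OVA-induced) counts in WT and 7342 and 6695 in Rab44-KO lungs. Only the OVA-induced WT library was high, and the OVA-induced Rab44-KO library was close to the normal ones. Between genotypes, Rab44-KO over WT, the log2FC was -0.98 (-1.03 to -0.94) in OVA-induced lungs and 0.18 (0.14 to 0.23) in normal lungs.

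Type I collagen, the main fibrillar collagen of most organs, is built from the products of Col1a1 and Col1a2. Col1a2 had 7988 counts in WT lungs under normal and 8445 under OVA-induced conditions, and 8030 and 5468 in Rab44-KO lungs, which left the OVA-induced Rab44-KO library below the rest (log2FC between OVA-induced genotypes -0.64, -0.69 to -0.59). For Col1a1 the counts were 4396, 5350, 4526 and 4274, with the OVA-induced WT library highest and a log2FC of -0.33 (-0.39 to -0.28). With TPM Col1a1 stood at 98.1 and 97.6 in the OVA-induced libraries, on a scale where all genes had a median log2FC of 0.29. Relative to genes of like length its log2FC was -0.52. Per length, the Col1a1 to Col1a2 ratio was 0.485 (normal) and 0.558 (OVA-induced) in WT and 0.496 and 0.688 in Rab44-KO lungs, the last with an interval of 0.661 to 0.717, so the chains did not move in step.

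Type V collagen nucleates type I fibrils, and its chains parted. Col5a2 had 1250, 2124, 1369 and 1834 counts, higher in both OVA-induced libraries. Col5a1 had 1156, 1179, 1110 and 1492, highest in OVA-induced Rab44-KO. The Col5a1 to Col5a2 ratio per length was 0.718, 0.431, 0.630 and 0.632 in this order, lowest in OVA-induced WT lungs. Their OVA-induced log2FC were 0.33 for Col5a1 and -0.22 for Col5a2. Col5a1 changed sign with the length trend removed (-0.01). Col5a2 did so with TPM (0.11), a scale on which all genes had a median of 0.29.

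Col5a3, the least abundant type V chain, went further in the direction of Col5a1. It had 120 and 176 counts in WT lungs, normal then OVA-induced, and 87 and 304 in Rab44-KO lungs. The OVA-induced Rab44-KO library was thus the highest and the normal Rab44-KO library the lowest, with log2FC between genotypes of 0.78 (0.51 to 1.06) in OVA-induced and -0.39 (-0.81 to 0.02) in normal lungs. Col27a1, a fibrillar chain best known from cartilage, had 544, 553, 517 and 776 counts, highest in OVA-induced Rab44-KO lungs (0.48, 0.32 to 0.64). Of 11 cartilage markers 5 were detected. Acan, the main cartilage proteoglycan, had 0 counts in all 4 libraries, while Chad, a cartilage matrix protein, had 408, 519, 309 and 302. Col11a2, with a mean under 100 counts, had 48 and 50 counts in the normal libraries and 113 and 131 in the OVA-induced ones.

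Type IV chains were higher in the OVA-induced Rab44-KO than in the OVA-induced WT library for 6 of 6 genes. Their median log2FC was 0.61, or 0.93 with TPM, where all genes had 0.29. Each counting interval lay above 0, as it did for 30.1% of all genes and for 61.1% of the longest quintile of genes, to which 4 of the 6 belong. Col4a1 and Col4a2, which form the network present in nearly all basement membranes, had the most counts. Col4a1 had 10257, 10391, 10634 and 14517 counts (OVA-induced log2FC 0.47, 0.44 to 0.51). Col4a2 had 10341, 9036, 10779 and 13854 (0.61, 0.57 to 0.65). For this pair the OVA-induced Rab44-KO library stood above all others.

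Col4a3, Col4a4 and Col4a5 assemble into the network of the mature kidney glomerulus and alveolus. Col4a3 had 3158 (normal) and 1661 (OVA-induced) counts in WT and 3153 and 3062 in Rab44-KO lungs. Here the OVA-induced WT library was low and the rest were alike, and the OVA-induced log2FC was 0.87 (0.79 to 0.96). Of its annotated exon bases 5.65% overlap the antisense gene C430014B12Rik, and the sources used here do not state whether strand was used in counting. Overlap with exons of other genes, on either strand, took 6.07% of Col9a3, 3.39% of Col6a4 and 2.5% of Col5a1, and at most 1.54% of any other chain. Col4a4 had 2508, 2198, 2568 and 3653 counts, highest in OVA-induced Rab44-KO (0.72, 0.65 to 0.80). Col4a5 had 1951, 1222, 1979 and 1527, lower in both OVA-induced libraries (0.31, 0.20 to 0.42). Col4a6, its neighbour and partner in another network, followed Col4a5 with 536, 324, 588 and 498 counts (0.61, 0.41 to 0.82).

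The proportions of type IV partners also differed between libraries. Col4a3 to Col4a4, per length, was 1.49 in normal WT and 1.45 in normal Rab44-KO but in OVA-induced lungs 0.895 (0.839 to 0.954) for WT and 0.993 (0.946 to 1.04) for Rab44-KO, so this ratio separated the conditions and not the genotypes. Col4a3 to Col4a5 was 1.18, 0.994, 1.16 and 1.47. Col4a1 to Col4a2 stayed within 0.765 to 0.892.

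Type VI collagen was lower in the OVA-induced Rab44-KO library for 4 of its 5 detected chains, where 52.2% of all genes were below 0, with a median log2FC of -0.58. The interval spans 0 for 1 of the 4, the scarce Col6a4. It had 11 and 18 counts in WT lungs, normal then OVA-induced, and 8 and 9 in Rab44-KO lungs. Col6a4 thus reached the count minimum only through the OVA-induced WT library, which favours a lower value here, and it enters this count and median. Col6a1 had 5926 counts in WT lungs under normal and 8570 under OVA-induced conditions, and 5632 and 6792 in Rab44-KO lungs (log2FC between OVA-induced genotypes -0.35, -0.39 to -0.30). Col6a2 had 4593, 6725, 4002 and 4514 (-0.58, -0.64 to -0.53). Both were highest in OVA-induced WT lungs. Col6a3, the large chain of the same assembly, did not share this: it had 2633, 2859, 2428 and 3204 counts, and Col6a1 to Col6a3 per length was 8.20 in OVA-induced WT against 5.80 to 6.35 elsewhere. This contrast rests on how length is treated: the OVA-induced log2FC of Col6a3, 0.15, became -0.26 relative to genes of like length, beside -0.36 for Col6a1, and all 5 type VI chains then lay below 0.

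Col6a5, a further type VI chain, showed the widest difference among the 35, and is named here because of that value, since its mean lies under 100 counts. It had 16 and 239 counts in WT lungs, normal then OVA-induced, and 23 and 29 in Rab44-KO lungs. Thus it was prominent only in OVA-induced WT, 8.26-fold above OVA-induced Rab44-KO (log2FC -3.05, -3.66 to -2.49), while the normal genotypes differed by 0.59 (-0.39 to 1.61). Of its 150-base windows 1.30% occur also in Col6a6, which had at most 16 counts. Its TPM was 2.74 in OVA-induced WT lungs, far below the 235 of Col6a1.

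Among the remaining chains, Col8a1 of type VIII, a short network-forming collagen of vessel walls, was the one chain over 2-fold higher in OVA-induced Rab44-KO lungs. It had 272 (normal) and 233 (OVA-induced) counts in WT and 391 and 512 in Rab44-KO lungs, so both Rab44-KO libraries exceeded both WT libraries. The log2FC was 1.13 (0.90 to 1.36) in OVA-induced and 0.60 (0.37 to 0.83) in normal lungs. Its partner Col8a2 had 433, 302, 401 and 405 counts, and Col8a1 to Col8a2 per length was 0.548 and 0.673 in the WT libraries, normal then OVA-induced, and 0.850 and 1.10 in the Rab44-KO libraries.

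The multiplexins Col15a1 and Col18a1, which sit at basement membranes and release fragments including endostatin from Col18a1, ran against type IV. Col15a1 had 231, 351, 225 and 196 counts, high only in OVA-induced WT (OVA-induced log2FC -0.85, -1.11 to -0.59). Col18a1 had 1229, 1268, 966 and 958, lower in the Rab44-KO library of each condition (-0.41 and, in normal lungs, -0.27). Col7a1 and Col17a1, described below, were near 0 in OVA-induced lungs (0.0035 and -0.02). With TPM they were at 0.32 and 0.29, where all genes had a median of 0.29. Relative to genes of like length they were at -0.31 and -0.17. With Col7a1, Col15a1, Col17a1 and Col18a1 added to the class its OVA-induced median was 0.39.

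Of 6 detected chains that associate with fibrils, 1 was over 1.5-fold lower in OVA-induced Rab44-KO lungs, the scarce Col22a1 at -0.59, with an interval spanning 0. This is close to the 16.5% of all genes that were lower. Col12a1 had 1232 and 1010 counts in normal WT and Rab44-KO lungs and 579 and 704 in the OVA-induced ones, low in the OVA-induced libraries of either genotype. Col14a1 had 1119, 1154, 1283 and 1009, Col16a1 852, 860, 822 and 906, and Col20a1 185, 171, 135 and 228, in the order given. The OVA-induced log2FC of these 4 lay between -0.20 for Col14a1 and 0.41 for Col20a1.

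No membrane-spanning chain, nor the anchoring fibril chain, passed 1.5-fold between OVA-induced genotypes, where 16.7% and 16.5% of all genes did so upwards and downwards. Col13a1 had 1696 and 1321 counts in normal WT and Rab44-KO lungs and 1482 and 1858 in OVA-induced ones, so the genotype difference had opposite signs in the 2 conditions (-0.29 and 0.32). Col23a1 had 1859, 1205, 1445 and 1354, highest in normal WT. Col17a1, of hemidesmosomes, had 125, 102, 115 and 101 counts, and Col7a1, the anchoring fibril chain of epithelia, had 296, 329, 300 and 332. The intervals of these last genes span 0 in both conditions. The remaining detected chains, Col9a3, Col22a1, Col26a1, Col28a1 and Col6a4, held between 8 and 55 counts in any library, and their genotype intervals all span 0.

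**Figure D3:**
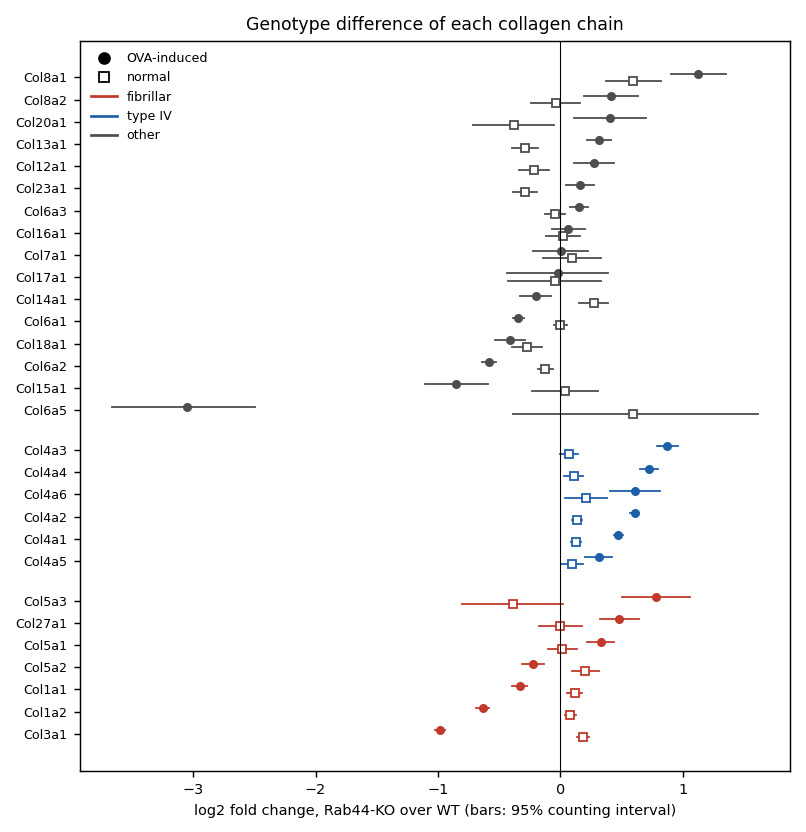
Log2FC of Rab44-KO over WT for the 28 chains with a mean of at least 100 counts and for Col6a5, in OVA-induced (filled circles) and normal (open squares) lungs, with bars for 95% counting intervals. The 6 type IV chains lie between 0.31 and 0.87 in OVA-induced lungs, Col3a1 at -0.98 and Col6a5 at -3.05, while normal values lie between -0.39 and 0.60.

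Over the 35 chains, 7 exceeded 1.5-fold upwards and 6 downwards between OVA-induced Rab44-KO and WT lungs, against 16.7% of 18327 genes higher and 16.5% lower. The higher chains were Col8a1, Col5a3, Col28a1 and, of type IV, Col4a2, Col4a3, Col4a4 and Col4a6. The lower ones were Col6a5, Col6a4, Col3a1, Col15a1, Col1a2 and Col22a1. Of these, Col6a4 reached the count minimum only through the OVA-induced WT library, so the minimum favoured its place here. At 2-fold there was 1 chain in each direction, Col8a1 and Col6a5, against 7.02% and 6.01% of genes. In normal lungs 2 chains were over 1.5-fold higher and 0 lower, where 5.97% and 3.80% of genes were, and no chain passed 2-fold (2.11% and 1.39% of genes). The higher chains in normal lungs were Col8a1 and Col6a5, close to the threshold at 0.60 and 0.59. The median log2FC over the 35 chains was 0.16 in OVA-induced and 0.04 in normal lungs. All genes had medians of -0.03 and 0.00.

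The effect of OVA was then read within each genotype, using the same 4 libraries arranged the other way. In WT lungs 8 of 8 fibrillar chains had a log2FC of OVA-induced over normal above 0, with a median of 0.41, and 5 of 6 type IV chains were below 0, with a median of -0.45. Of all 18327 genes 9133 were above 0 and 9194 below. The counting interval lay above 0 for 6 of the 8 fibrillar chains and for 29.0% of all genes. The fibrillar median was 0.22 with TPM, and the type IV median was -0.20 with Col7a1, Col15a1, Col17a1 and Col18a1 added. With TPM, where all genes had a median of -0.17, Col1a2, Col5a1 and Col27a1 went below 0 (-0.11, -0.16 and -0.16). In Rab44-KO lungs the fibrillar median was 0.33, with 5 of 8 above 0, and the type IV median was 0.06, with 3 of 6 above 0, where 8871 of all genes were above 0. The summed counts gave 0.47 in WT and -0.23 in Rab44-KO for fibrillar chains, and -0.22 and 0.23 for type IV. Without Col4a1 and Col4a2, an omission chosen after seeing the data, the type IV values were -0.61 and -0.02, and without Col3a1 the fibrillar values were 0.20 and -0.23. The sign of the fibrillar sum in Rab44-KO differs from that of the median because Col1a1, Col1a2 and Col3a1, which hold most of the counts, were the 3 chains below 0.

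In WT, 7 chains were over 1.5-fold higher and 6 lower after OVA (13.8% and 12.1% of all genes), and 2 were over 2-fold higher and 1 lower (7.52% and 4.43%). These were Col6a5 at 3.88 and Col11a2 at 1.22, and Col12a1 at -1.10. The 7 higher at 1.5-fold include Col6a4 at 0.69, which reached the count minimum only through the OVA-induced WT library. In Rab44-KO, 3 chains were over 1.5-fold higher and 2 lower (11.2% and 9.36%), and 2 were over 2-fold higher and 0 lower (5.05% and 3.20%). The higher ones were Col5a3 at 1.71 and Col11a2 at 1.29, so Col11a2 had like values in both genotypes. Col20a1 at 0.66 was the remaining higher chain, and the lower ones were Col1a2 at -0.65 and Col12a1 at -0.62.

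The response in Rab44-KO minus that in WT was -1.17 (-1.23 to -1.10) for Col3a1, -0.72 (-0.78 to -0.65) for Col1a2 and 0.80 (0.69 to 0.91) for Col4a3. It was 1.17 (0.67 to 1.67) for Col5a3 and -3.64 (-4.82 to -2.48) for Col6a5. For Col16a1 it was 0.04 (-0.15 to 0.24), and Col7a1 and Col17a1 also had intervals spanning 0. Responses of opposite sign in the 2 genotypes, with both counting intervals away from 0, were found for 7 of the 35 chains and for 14.6% of all genes. No such difference could be tested against variation between mice.

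**Figure D4:**
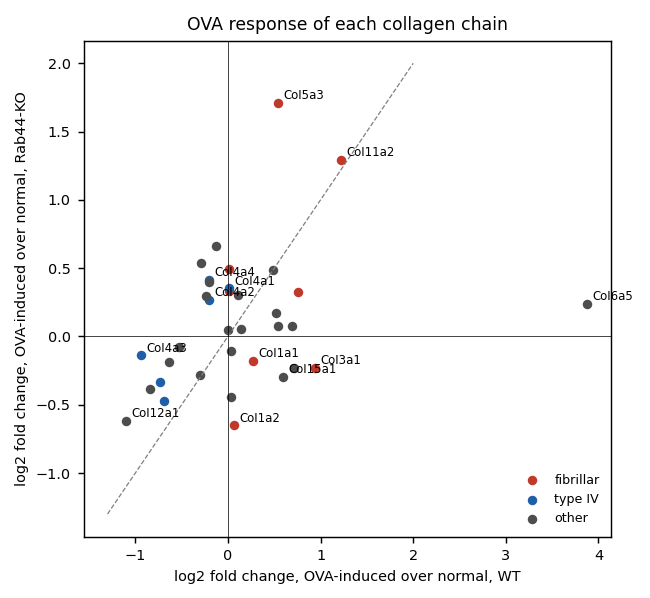
Log2FC of OVA-induced over normal in WT (x axis) and Rab44-KO (y axis) lungs for the 35 chains. The dashed line marks equal responses, with Col11a2 near it at 1.22 and 1.29, Col6a5 far to the right at 3.88 and 0.24, and Col3a1 at 0.94 and -0.23.

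Collagen transcripts are long, and the OVA-induced libraries differed along transcript length. Lengths implied by counts and TPM ran from 3090 to 14138 bases for the 35 chains, and 16 of them fell in the longest quintile of all genes, 16 in the next and 3 in the middle one. In OVA-induced lungs the median log2FC of all genes, Rab44-KO over WT, climbed over the quintiles from -0.41 in the shortest through -0.25, -0.08 and 0.11 to 0.37 in the longest, where 31.9% of genes were over 1.5-fold higher and 5.13% lower. In normal lungs the quintile medians ran from -0.04 to 0.06. Across all genes Spearman's rho of length with the OVA-induced log2FC was 0.40, and across the 35 chains, which share libraries and a narrow span of lengths, it was 0.09.

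Relative to the running median of genes of like length, the chains lay lower. Their OVA-induced median became -0.11, with 14 above the running median and 21 below, and the type IV median fell from 0.61 to 0.34 with 6 of 6 above. Relative to length no type IV chain was over 1.5-fold higher, and the 2 chains that were are Col8a1 and Col5a3. The fibrillar median went from -0.01, with 4 of 8 above 0, to -0.24, with 2 of 8 above the running median. Col3a1 stood at -1.11, Col1a2 at -0.79 and Col6a5 at -3.36 relative to length, further from 0 than before. Col4a3 was at 0.54 and Col4a1 at 0.16, and Col5a1 fell to the running median (-0.01). Whether length plays a part in any chain's difference was not tested beyond this subtraction.

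**Figure D5:**
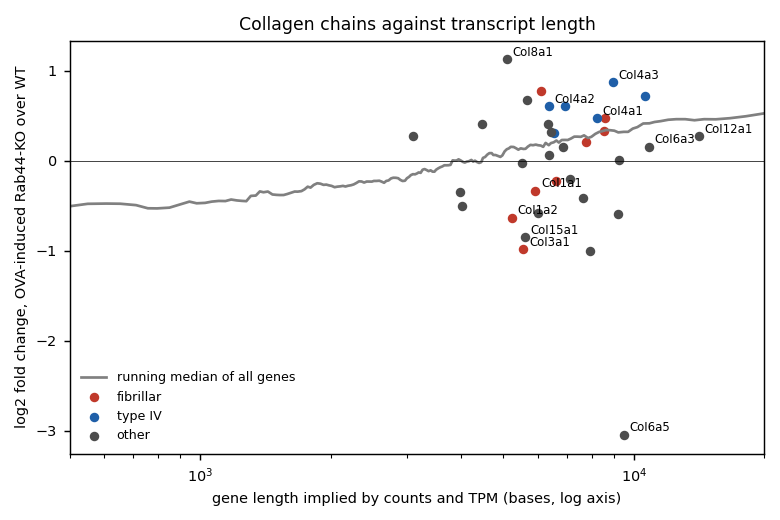
Log2FC of OVA-induced Rab44-KO over WT against implied gene length (log axis) for the 35 chains, with the running median of all genes along length in grey. All 6 type IV chains lie above the grey line, while Col3a1, Col1a2 and Col6a5 lie below it.

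Genes of collagen biosynthesis were counted in the same way, and the background for these counts and those of the next lists is 16.7% upwards and 16.5% downwards. Of 15 prolyl and lysyl hydroxylases and glycosyltransferases, 0 were over 1.5-fold higher and 1 lower in OVA-induced Rab44-KO lungs. Their median was -0.22, and -0.06 relative to length. P4hb, a subunit of prolyl 4-hydroxylase, had 11495, 13456, 9735 and 10079 counts. Among 9 chaperones and export factors none passed 1.5-fold, and Serpinh1, the collagen chaperone HSP47, had 4480, 5932, 4304 and 5575. Of 7 detected propeptide-processing genes 1 was higher and 1 lower. Pcolce, which enhances trimming of fibrillar procollagen, had 3064, 2935, 2547 and 1544 counts and a log2FC of -0.94.

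Lox, the lysyl oxidase that crosslinks collagen and elastin, had 823, 1129, 909 and 2363 counts (OVA-induced log2FC 1.06), and was 1 of 2 among 7 crosslinking enzymes over 1.5-fold higher, with Pxdn, which crosslinks type IV collagen, at 0.63. Among 9 detected fibril-associated proteoglycans 0 were higher and 2 lower, and Lum, which binds collagen fibrils, had 260, 153, 236 and 58 counts (-1.41). Of 17 detected elastic fibre and fibronectin genes 2 were higher and 4 lower. Mfap4, a microfibril-associated protein, had 7887, 7820, 6691 and 2192 counts (-1.84), low only in OVA-induced Rab44-KO lungs. Other basement membrane components, laminins among them, had a median of 0.32 over 15 genes, with 5 over 1.5-fold higher and 0 lower, and 0.02 relative to length. Lamc1, the most widespread laminin gamma chain, had 4415, 3600, 4427 and 5126 counts (0.50).

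Among 10 collagen receptors 3 were over 1.5-fold higher and 1 lower in OVA-induced Rab44-KO lungs, where 16.7% and 16.5% of all genes were. Itga1, which pairs with Itgb1 as a receptor for type IV and other collagens, had 2243, 1321, 2579 and 3549 counts (1.42), lowest in OVA-induced WT and highest in OVA-induced Rab44-KO lungs, as were Col4a2 and Col4a4. Of 9 detected collagen breakdown genes 2 were higher and 4 lower. Ctsk, a protease that cuts collagen helices, had 614, 5349, 449 and 598 counts (-3.17), and like Col3a1 and Col6a5 was high only in OVA-induced WT lungs. Mmp2, a gelatinase, had 2147, 3228, 2445 and 1414 (-1.20). Mmp8, a neutrophil collagenase, had 57, 163, 39 and 400 (1.28). Among 9 detected TGF-beta genes and regulators none passed 1.5-fold.

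Markers of the cells that could supply these chains also differed between the libraries. Of 10 endothelial markers 5 were over 1.5-fold higher and 1 lower in OVA-induced Rab44-KO than WT lungs, beside 16.7% and 16.5% of all genes, which holds for the marker sets that follow too. The sums of this and the following sets are in TPM, where all genes had a median log2FC of 0.29 between OVA-induced genotypes. The summed TPM of the endothelial markers was 2364 in OVA-induced WT, 3440 in OVA-induced Rab44-KO, 3046 in normal WT and 2943 in normal Rab44-KO lungs. It was lowest and highest in the same libraries as type IV. Of 8 alveolar type 1 markers 4 were higher and 1 lower, with summed TPM of 3713 and 4081 in the OVA-induced libraries and 5468 and 4887 in the normal ones. Heart muscle markers were over 1.5-fold higher for 7 of 8 genes. Their sums were 417 and 950 TPM in OVA-induced WT and Rab44-KO and 1017 and 1088 in normal WT and Rab44-KO lungs. Their part in the type IV difference was not tested.

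Beside the fibrillar and type VI chains, fibroblast markers were over 1.5-fold higher for 1 and lower for 3 of 10 genes. With scaled counts their median log2FC was -0.16, with 3 above 0 and 7 below, and 0.05 relative to length. In TPM, where all genes had a median of 0.29, they summed to 3817 and 4228 in OVA-induced WT and Rab44-KO lungs and to 6901 and 6086 in normal ones. Most of this sum was Inmt, and without it, an omission chosen after seeing the data, the sums were 696 and 684 TPM in OVA-induced and 1180 and 1061 in normal lungs, so the OVA-induced order turned. Of 8 smooth muscle and myofibroblast markers 0 were higher and 1 lower, with sums from 861 to 894 TPM over the 4 libraries. Of 8 pericyte markers 1 was higher and 0 lower (sums from 417 to 604). Leukocyte markers were lower for 7 of 8 genes, with 2114 TPM in WT and 1316 in Rab44-KO when OVA-induced, against 916 and 932 in normal lungs, and eosinophil markers for 6 of 7 detected of 8, at 477 and 366 against 250 and 246. Epx, the eosinophil peroxidase, had 0, 1, 0 and 0 counts. The leukocyte and eosinophil sums were highest in OVA-induced WT lungs, as were Col3a1, Col6a1, Col6a2, Col6a5 and Col15a1, and their part in those differences was not tested.

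Other marker sets stood as follows. Alveolar type 2 markers, which identify lung, summed to 48005 and 48339 TPM in normal WT and Rab44-KO lungs. After OVA the WT sum was the highest, at 58796, and the Rab44-KO sum the lowest, at 40316, opposite to type IV. Of these sums Sftpc alone held 48953 and 30518. Between OVA-induced genotypes 1 of 8 was over 1.5-fold lower, 7 were below 0 and 1 above. Their median log2FC was -0.25, and -0.27 relative to length. Their part in the type IV difference was not tested. Mesothelial markers had 1 of 7 higher in OVA-induced Rab44-KO lungs and 5 of 7 higher in normal Rab44-KO lungs (5.97% of all genes), with sums from 410 to 518 TPM. In OVA-induced over normal WT lungs 5 of 7 were over 2-fold higher (7.52% of all genes), with a median log2FC of 1.43, and in Rab44-KO lungs 1 of 7 was (5.05%), with a median of 0.33. Like the fibrillar sum they were higher after OVA in WT, and their part in that sum was not tested. Airway basal markers summed to 9.75 to 14.8 TPM, with 2 higher and 1 lower of 5 detected. Cartilage markers summed to 56.1 to 58.6 TPM with 5 of 11 detected, of which 0 were higher and 3 lower, and bone markers to 2.65 to 3.61 TPM with 1 of 6 detected and Sp7 at 0 in all libraries.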

How the data were processed

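RNA-seq of mouse lung was analysed in 4 libraries, assigned to genotype and condition by their labels. After trimming, the authors mapped paired-end reads to GRCm38 by HISAT2, assigned them to genes by featureCounts and deposited the raw counts. They also deposited TPM, made from these counts with 1 length per gene, and that length came out whole, within 0.01 bases, for 100% of 28168 genes. The paper names a directional library kit. Versions of the mapping and counting tools, the annotation and whether strand was used in counting are not given in the sources used here. For 0 of the 44 chains does the gene start of the deposited table equal that of GENCODE M21, so printed positions are from GENCODE.

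Counts were scaled with edgeR 4.0.16 (TMM over the 4 libraries, factors from 0.973 to 1.02, prior count 0.125) in R 4.3.3. Genes with a mean of at least 10 counts, 18327 in all, were kept. A difference over 1.5-fold was counted, and no test was run because each group is 1 library. Intervals are exact 95% Clopper-Pearson intervals of a count ratio, or of an odds ratio for the response difference, and cover counting error only. A running median along length was taken over neighbouring genes. Further steps used Python 3.11.15, numpy 2.4.6, pandas 2.3.3, scipy 1.17.1 and matplotlib 3.10.9, and DESeq2 1.42.0 gave alternative size factors. The steps were tested on simulated counts.

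The chains, the pathway and marker lists and the comparisons were chosen with earlier results of these data known. Chains with a mean of at least 100 counts were named. Of each list the 3 members with the highest mean TPM, and members whose higher library held 100 counts or more and whose absolute log2FC between OVA-induced genotypes was above 1, could be named. Acan, Epx and Sp7, and the chains with lower means other than Col9a1, were named outside this rule after their values were seen. The alternatives tried were size factors of DESeq2, unscaled totals, TMM leaving out immunoglobulin genes, prior count 2, TPM with a pseudocount of 0.1, thinned counts, removal of the length trend, other count minimums and other calls.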

Additional observations from a re-analysis of the deposited data

Results flagged for a closer look

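In 7 of the 35 chains the OVA response had opposite signs in WT and Rab44-KO lungs, with both counting intervals away from 0, as they did for 14.6% of all genes. The response in Rab44-KO minus that in WT, on the log2 scale, was -1.17 for Col3a1, -0.89 for Col15a1, -0.72 for Col1a2 and -0.45 for Col1a1, which were higher after OVA in WT and lower in Rab44-KO. It was 0.62 for Col4a4, 0.60 for Col13a1 and 0.47 for Col4a2, which were lower after OVA in WT and higher in Rab44-KO. With 1 library per group these differences were not tested. The WT response of Col1a2 was 0.07 and took the other sign with TPM (-0.11), where all genes had a median of -0.17. That of Col4a4, -0.20, was near 0 (-0.005) with the length trend removed.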

How the results depend on the processing

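No paired analysis was possible because each group is 1 library and the labels carry no replicate numbers. Groups of 1 library also allow no omission of a replicate.

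Between OVA-induced genotypes the median log2FC of the chains, 0.16 as reported, was 0.48 with TPM and -0.11 with the length trend removed. All genes together had a median of 0.29 on the TPM scale. The number of chains over 1.5-fold higher, 7, became 15 with TPM, 2 with the length trend removed, 1 at 2-fold and 16 where the counting interval alone decided. The number lower, 6, became 2 with TPM, 3 at a mean of 100 counts, 1 at 2-fold and 10 by the interval.

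Between normal genotypes 2 chains were higher. This became 1 with a prior count of 2, with TPM or at a mean of 100 counts, 0 with the length trend removed, with thinned counts or at 2-fold, 4 at a mean of 1 count and 11 by the interval. The 0 lower became 1 with thinned counts or with 10 counts in the higher library, 3 at a mean of 1 count and 6 by the interval.

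For the WT response to OVA the median of 0.02 was -0.16 with TPM, where all genes had -0.17, -0.03 with total counts only and 0.18 with the length trend removed. The 7 higher became 3 with TPM or at a mean of 100 counts, 2 at 2-fold and 11 by the interval, and the 6 lower became 1 at 2-fold and 10 by the interval. For the Rab44-KO response the 3 higher became 5 with TPM and 14 by the interval, and the 2 lower became 0 with TPM or at 2-fold, 6 at a mean of 1 count and 10 by the interval. All genes had a median of 0.11 here with TPM, and type IV chains 0.19. With the length trend removed the median of the chains, 0.07, was -0.01, and that of type IV, 0.06, was -0.02.

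The type IV median for the Rab44-KO response, 0.06, was -0.12 with Col7a1, Col15a1, Col17a1 and Col18a1 added. Of the 28 named chains in 4 comparisons, 112 values in all, TPM moved 62, the length trend 44 and total counts 10 beyond their counting interval, and the other scalings moved none. In OVA-induced lungs the type IV chains, Col3a1, Col1a2, Col15a1 and Col8a1 kept their direction under all of these scalings, while Col5a1, Col5a2, Col6a3, Col7a1, Col12a1, Col14a1, Col16a1, Col17a1 and Col23a1 did not. Depth limits the 9 chains under the count minimum, which entered no summary. Of these only Col6a6 (4, 7, 16 and 5 counts in normal WT, OVA-induced WT, normal Rab44-KO and OVA-induced Rab44-KO lungs) and Col25a1 (7, 7, 9 and 1) had a counting interval off 0 in any of the 4 comparisons.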
